A study of Mus musculus with 6 samples.

Results

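The Reg genes encode small secreted proteins built around a single C-type lectin fold. Of the 6 genes of the family considered here (Reg1, Reg2, Reg3a, Reg3b, Reg3d and Reg3g), 5 were named by the annotation of the array, and 10 of its 12422 non-control probe sets named exactly 1 of them. Each of the 5 genes had 2 such probe sets, and Reg3d was not analysed here. The genes were chosen by family name, but the family was proposed with the lower signal of Reg3b in these arrays already known, so all comparisons of genotype in these genes are descriptions and no p-value is given for them.

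The arrays compared medullary thymic epithelial cells of Aire-deficient mice, in which both copies of Aire were disrupted, and of wild-type mice. There were 3 arrays for each genotype. The RNA on an array came from 5 animals, males and females, whose thymi had been pooled, which makes 15 animals a group. All animals were B6/129 F2 mice, 3 to 5 weeks old, and the sorted cells of both groups were CD45-, G8.8+, CDR1int and B7.1hi. The RNA of every pool went through a pair of T7 amplification rounds, which favour the 3′ ends of transcripts. The labels do not give the disrupted part of Aire. The signal of its probe set was 202, 297 and 211 in Aire-deficient pools 1 to 3, against 59.9, 96.4 and 138 in wild-type pools 1 to 3, so it did not check the genotypes.

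Reg proteins are made in large amounts by pancreatic acinar cells and by the epithelium of the small intestine. Reg1 and Reg2 are pancreatic secretory proteins linked to stone formation and to islet regeneration. Reg3b and Reg3g are bactericidal lectins of the gut surface, and both are induced through interleukin-22 and STAT3. In the thymus, medullary epithelial cells transcribe many genes of such peripheral tissues, and Aire is needed for a large share of them.

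The Reg genes lie side by side on mouse chromosome 6, in the order Reg3b, Reg3d, Reg3a, Reg2, Reg1 and Reg3g. The 150 bases before the transcription start of 4 of them are shown, because Reg3b and Reg3g had the most similar upstream sequence of the family and unequal signal differences, and Reg1 and Reg3a show how far the others diverge. The sequences are from RefSeq, build GRCm38.p6, and capitals mark TATAAA and the STAT-type motif TTCNNNGAA.
Reg3b, chr6:78370735-78370884, plus strand: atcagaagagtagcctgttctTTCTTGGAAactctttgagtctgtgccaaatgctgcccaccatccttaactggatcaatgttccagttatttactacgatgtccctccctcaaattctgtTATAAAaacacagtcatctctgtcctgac
Reg3g, chr6:78468875-78469024, minus strand: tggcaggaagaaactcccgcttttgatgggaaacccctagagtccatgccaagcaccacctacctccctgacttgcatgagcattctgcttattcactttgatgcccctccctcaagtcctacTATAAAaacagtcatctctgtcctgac
Reg1, chr6:78425833-78425982, plus strand: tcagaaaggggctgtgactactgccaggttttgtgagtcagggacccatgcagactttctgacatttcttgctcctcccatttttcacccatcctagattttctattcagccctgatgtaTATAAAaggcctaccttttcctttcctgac
Reg3a, chr6:78380559-78380708, plus strand: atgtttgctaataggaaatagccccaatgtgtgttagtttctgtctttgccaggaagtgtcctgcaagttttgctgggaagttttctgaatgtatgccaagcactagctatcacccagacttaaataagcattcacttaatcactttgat

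In a global alignment of these 150 bases, Reg3b and Reg3g were identical at 69.5% of the alignment columns and shared a run of 20 bases. Reg1 and Reg2 followed with 61.1%, and the other 13 pairs lay between 40.2% and 55.2%. TATAAA was present within the 150 bases of Reg1, Reg2, Reg3b and Reg3g, its first base 27 to 30 bases before the start. It was present in 7.57% of the 32851 promoter windows of the table over the same 150 bases on either strand, and in 13.62% over the full 300 bases (4 of 6 Reg genes). The STAT-type motif occurred in the 150 bases of Reg3b alone among the 6 genes, 129 bases before its start, and in 4.09% of all windows. Over the full 300 bases Reg3d held it as well, that is 2 of 6 genes, against 8.3% of all windows. These matches describe letters and not bound sites.

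Signals are given in arbitrary units after quantile normalization, with values under 1.8 raised to that floor. The value of 5.53, the pooled 40th percentile, is called the dim limit. Means are geometric means of 3 arrays with SDs on the log2 scale, and differences are Aire-deficient minus wild type on the log2 scale with their SE. The number of arrays limits the precision of every value.

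In the probe set names of this array type, "f" marks probes that can match several members of a gene family, "s" probes shared by several transcripts and "r" probes chosen with relaxed design rules. They are called family-type, shared-type and relaxed here. Reg1, Reg3a and Reg3g each had 1 unmarked and 1 family-type probe set, Reg2 had 1 unmarked and 1 relaxed, and Reg3b had 1 shared-type and 1 family-type. Signals of one Reg gene on the marked probe sets may therefore include another.

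Signals of Reg3b, Reg3g, Reg3a and Reg1 were lower in the Aire-deficient cells, those of Reg3b by the most, whereas the groups overlapped in Reg2. The Aire-deficient arrays lay below the wild-type arrays without overlap in 7 of the 10 Reg probe sets, and in 7.86% of all probe sets. Of the 7768 probe sets above the dim limit on 3 or more arrays, 10.1% showed that order. The 7 belong to Reg1, Reg3a, Reg3b and Reg3g and are not independent. On the values as deposited, and after median scaling, the count was 6 of 10, against 6.23% and 6.70% of all probe sets, because the groups then overlapped on the unmarked Reg3g probe set. None of the 10 showed the opposite order under any of the 3 scalings. The median difference over the 5 genes, with the brighter probe set taken for each, was -1.41, and the median over all 8251 genes of the array was 0.01. In RNA of whole pools, fewer cells with Reg transcripts and less Reg RNA per cell cannot be told apart.

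**Figure D1:**
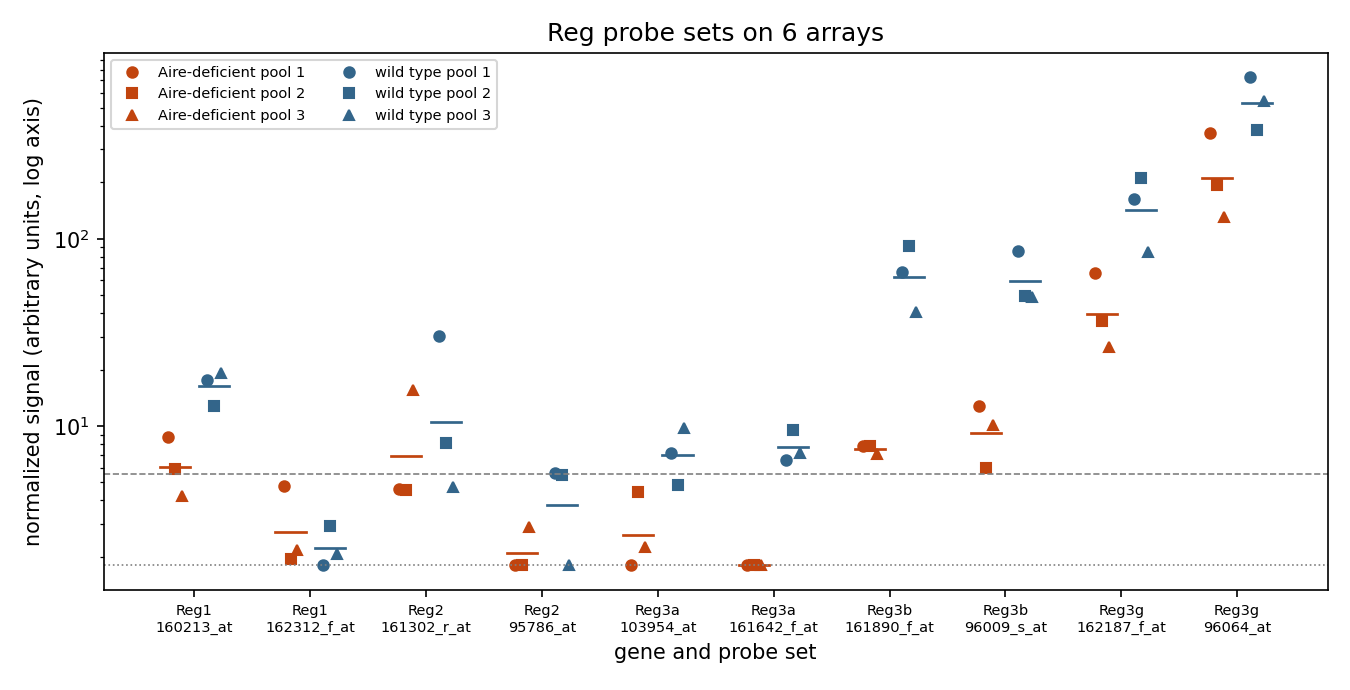
Normalized signal (log axis, arbitrary units) of the 10 Reg probe sets in each pool, with Aire-deficient pools left of wild-type pools, bars for geometric means, a dashed line at the dim limit of 5.53 and a dotted line at the floor of 1.8. The groups are apart in 7 probe sets, and the Reg3b probe sets have mean signals of 7.57 and 9.21 in Aire-deficient cells and 62.7 and 59.3 in wild-type cells.

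Reg3b, also known as pancreatitis-associated protein, had the largest differences of the family. Its signal on the shared-type probe set was 12.9, 6 and 10.1 in Aire-deficient pools 1 to 3, against 86.2, 49.6 and 48.7 in wild-type pools 1 to 3. The highest Aire-deficient pool was thus well below the lowest wild-type pool. The means were 9.21 (SD 0.56, n = 3) in Aire-deficient cells and 59.3 (SD 0.47, n = 3) in wild-type cells, a difference of -2.69 ± 0.42, or 6.44-fold lower in Aire-deficient cells.

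The second Reg3b probe set, of the family type, showed the same separation. Its signals were 7.83, 7.83 and 7.07 in Aire-deficient pools 1 to 3, against 66.6, 91 and 40.6 in wild-type pools 1 to 3. The Aire-deficient pools were nearly equal, whereas the wild-type pools were spread more widely, with pool 3 lowest. The difference was -3.05 ± 0.34, or 8.28-fold lower in Aire-deficient cells. Both probe sets stayed above the dim limit on all 6 arrays. Neither is unmarked, and Reg3g was far brighter in the same pools, so the remaining signal cannot be assigned to Reg3b.

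Reg3g, a lectin that binds peptidoglycan and kills Gram-positive bacteria, kept a clear signal in the Aire-deficient cells. On its unmarked probe set the signals were 367, 195 and 130 in Aire-deficient pools 1 to 3, against 727, 379 and 544 in wild-type pools 1 to 3. The groups were apart, but only just: the highest Aire-deficient pool lay next to the lowest wild-type pool. As deposited, Aire-deficient pool 1 had 350.6 and wild-type pool 2 had 324.8, so the groups overlapped there. The means were 210.2 (SD 0.76, n = 3) in Aire-deficient cells and 531 (SD 0.47, n = 3) in wild-type cells, a difference of -1.34 ± 0.51, or 2.53-fold lower in Aire-deficient cells.

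The family-type probe set of Reg3g gave 65.7, 36.3 and 26.3 in Aire-deficient pools 1 to 3, against 162, 212 and 85.2 in wild-type pools 1 to 3. Its difference was -1.85 ± 0.55, or 3.60-fold lower in Aire-deficient cells. Within the Aire-deficient group both Reg3g probe sets were highest in pool 1 and lowest in pool 3. In the wild-type group they disagreed, with the highest signal in pool 1 on one and in pool 2 on the other.

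**Figure D2:**
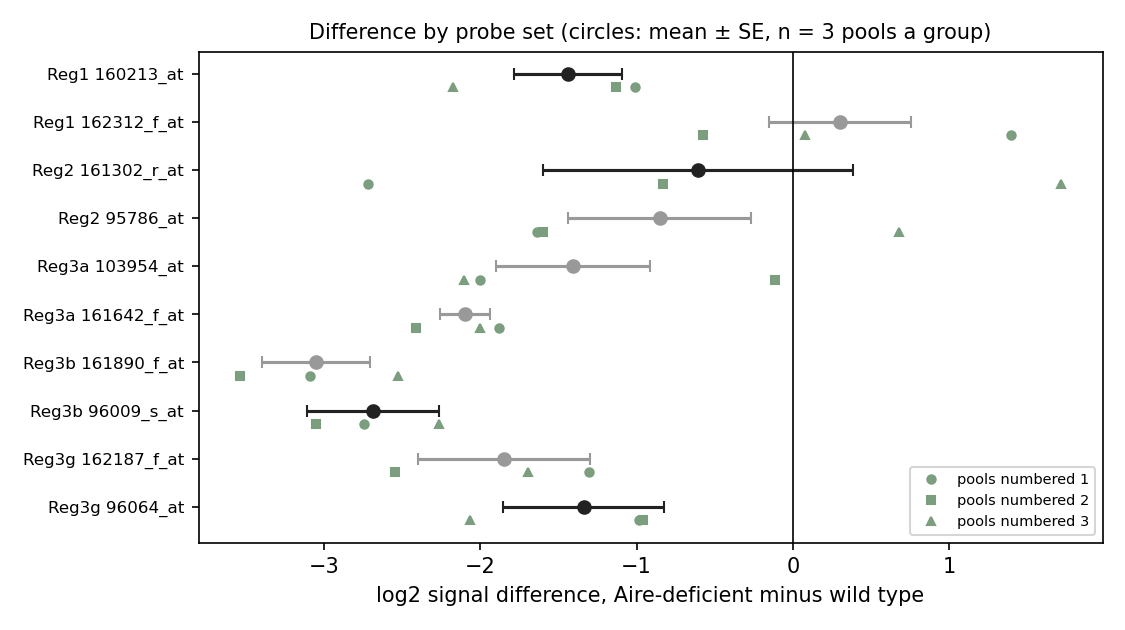
Log2 signal difference, Aire-deficient minus wild type, of each Reg probe set (dark circles for probe sets tested as the gene's own, grey for the others, bars for SE, n = 3 pools a group), with the differences between pools of the same number in green below. The Reg3b differences of -2.69 and -3.05 are the furthest from 0, and both Reg2 probe sets have pools on either side of 0.

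The difference of Reg3b exceeded that of Reg3g within single arrays, but the separation of the groups depended on which probe sets were paired. The log2 ratio of the shared-type Reg3b signal to the unmarked Reg3g signal was -4.84, -5.02 and -3.68 in Aire-deficient pools 1 to 3, against -3.08, -2.93 and -3.48 in wild-type pools 1 to 3. The ratio was lower in each Aire-deficient pool than in any wild-type pool, although Aire-deficient pool 3 came close to wild-type pool 3. The ratio differed by -1.35 ± 0.45 between the genotypes. With the family-type probe sets the ratio was -3.07, -2.21 and -1.90 in Aire-deficient pools 1 to 3, against -1.29, -1.22 and -1.07 in wild-type pools 1 to 3, a difference of -1.20 ± 0.36. A ratio within an array does not move with a linear scaling of that array. These ratios were taken after quantile normalization, which is not linear, so they can depend on it. On the values as deposited the differences were -2.56 for Reg3b and -0.97 for Reg3g, each on the brighter probe set. The family-type Reg3b over the unmarked Reg3g probe set also kept the groups apart, but the shared-type Reg3b over the family-type Reg3g did not. There wild-type pool 2 had 49.6 over 212, a lower ratio than the 10.1 over 26.3 of Aire-deficient pool 3. The ratios listed above show only that both signals differed to an unequal degree on the probe sets paired.

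**Figure D3:**
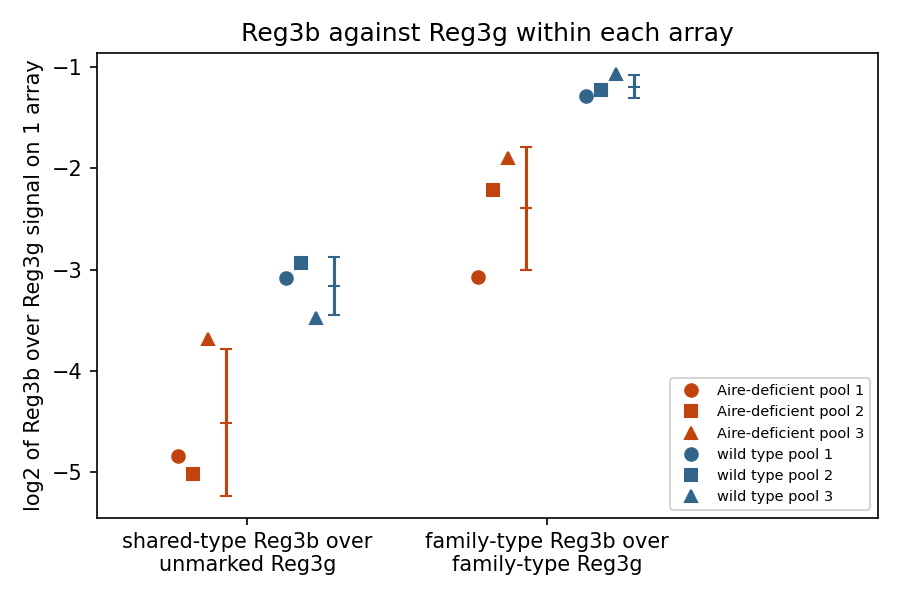
Log2 ratio of the Reg3b signal to the Reg3g signal on the same array, for the shared-type Reg3b over the unmarked Reg3g probe set (left) and for the family-type pair (right), with each pool as a point and the mean ± SD (n = 3) beside it. The Aire-deficient ratios, -5.02 to -3.68 and -3.07 to -1.90, lie below the wild-type ratios, -3.48 to -2.93 and -1.29 to -1.07. Other pairings of the probe sets are not drawn.

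Reg3a, a lectin of the same subfamily, was dim. Its unmarked probe set gave 1.8, 4.45 and 2.27 in Aire-deficient pools 1 to 3, against 7.20, 4.82 and 9.75 in wild-type pools 1 to 3. All Aire-deficient pools and wild-type pool 2 were under the dim limit. The difference was -1.41 ± 0.49 on the floored values, and the fold was at least 1.26 when the wild-type mean was set against the dim limit. The second Reg3a probe set, of the family type, was at the floor on all 3 Aire-deficient arrays, where it was deposited as 0.2 each time, and at 6.62, 9.55 and 7.20 in wild-type pools 1 to 3, at least 1.39-fold lower in Aire-deficient cells.

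Reg1, the pancreatic stone protein, was lower on its unmarked probe set. The signals there were 8.72, 5.87 and 4.25 in Aire-deficient pools 1 to 3, against 17.5, 12.9 and 19.2 in wild-type pools 1 to 3. The groups did not overlap, and the difference was -1.44 ± 0.35, or 2.71-fold lower in Aire-deficient cells. The other Reg1 probe set was under the dim limit on all 6 arrays, with means of 2.73 in Aire-deficient and 2.22 in wild-type cells and a difference of 0.30 ± 0.45. It gives no fold.

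Reg2, a close relative of Reg1 in mice, varied more between pools than between genotypes. The probe set of relaxed design gave 4.63, 4.55 and 15.6 in Aire-deficient pools 1 to 3, against 30.4, 8.08 and 4.73 in wild-type pools 1 to 3. Single pools stood out in both groups, and the groups overlapped. The difference of -0.61 ± 0.99 was smaller than its error, and it was 0.16 without wild-type pool 1. The unmarked probe set exceeded the dim limit in wild-type pool 1 alone, at 5.60.

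**Figure D4:**
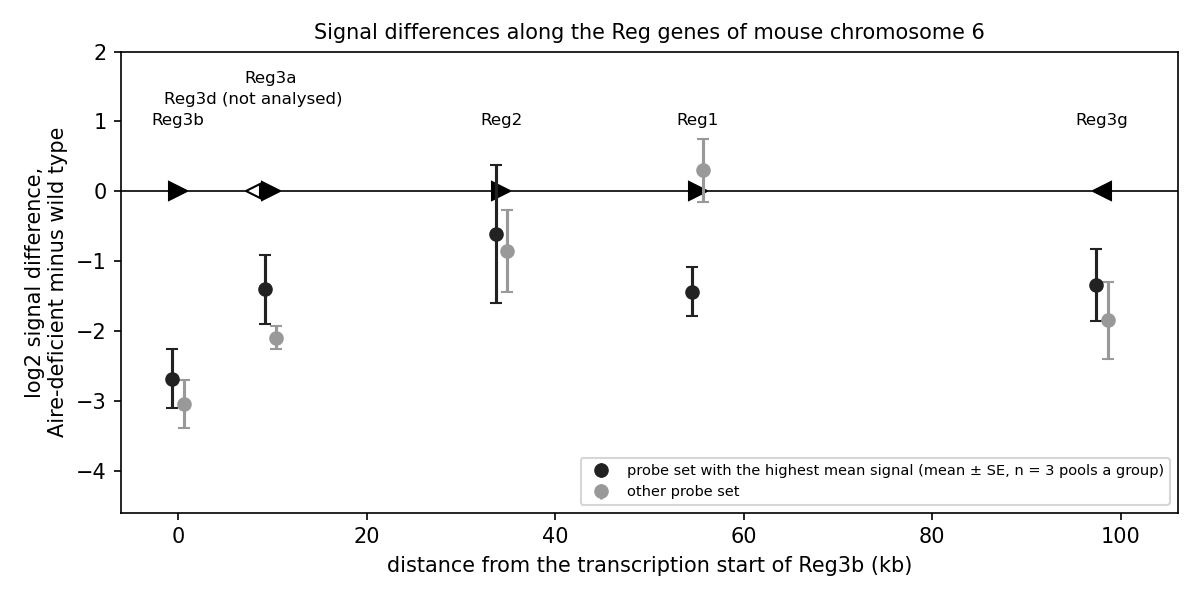
Log2 signal difference, Aire-deficient minus wild type, against distance in kb from the transcription start of Reg3b, with arrowheads at each start giving the strand and bars for SE (n = 3 pools a group). Reg3b, Reg3a, Reg1 and Reg3g have differences of -2.69, -1.41, -1.44 and -1.34 on the brighter probe set, and Reg2 has -0.61.

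In the limma fit over 5950 genes, 4 of the 5 Reg genes were bright enough to be tested, and Reg3a was not. Reg3b was called lower at an adjusted p under 0.05, and Reg1, Reg2 and Reg3g were not called. Of all genes tested, 1.33% were called lower and 0.387% were called higher. The share is given for scale, since the family was proposed from this comparison. No Reg gene was called higher, and none was higher at an unadjusted p under 0.05, where 3 Reg genes were lower, against 8.32% of all genes tested that were lower and 6.82% that were higher. With the replicate number as a block 2 Reg genes were called lower, Reg3b and Reg3g, when 3.70% of all genes tested were called lower and 2.59% higher. The call of Reg3b was lost without Aire-deficient pool 2, without wild-type pool 3, without both pools numbered 2 and without the filter on dim signals. In each of these 4 settings no Reg gene was called by limma, and 3 or 4 were lower at an unadjusted p under 0.05, as were 5.04% to 6.71% of all genes tested there.

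Genes flanking the family on the chromosome were not called. The 3 nearest genes with a tested probe set on each side were Ctnna2, Suclg1 and Kcmf1 before Reg3b and Gm20362, Pole4 and Hk2 after Reg3g. By limma 0 of the 6 were called, with 1, Hk2, higher at an unadjusted p under 0.05, and their differences lay between -0.34 for Gm20362 and 1.17 for Hk2, with 5 of 6 above 0. Ctnna2, which encodes an alpha-catenin of neurons and is the nearest to Reg3b, had means of 38.6 in Aire-deficient and 24.2 in wild-type cells (0.67 ± 0.39, adjusted p = 0.46). Hk2, a hexokinase, had 39.5 in Aire-deficient and 17.5 in wild-type cells (adjusted p = 0.132).

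Genes listed for the pathway upstream of the Reg genes showed no call in the limma fit. Of 24 cytokines, receptors and signalling genes listed, with Extl3 counted among them, 14 were tested, and 0 were called in either direction. At an unadjusted p under 0.05, 4 were lower and 2 higher. The median difference was 0.05 over the 17 on the array, against 0.01 over all genes on it. Il22 and its receptor gene Il22ra1 were not among the 17, so the step at interleukin-22 itself was not measured. Il6, Il11 and Il17a were on the array but were not tested. Stat3, the transcription factor of this pathway, had means of 218 in Aire-deficient and 119 in wild-type cells (0.87 ± 0.36, adjusted p = 0.276). With the 3′ bias of each array as a term in the fit, Stat3 was called higher (1.28, adjusted p = 0.0472). Socs3, a feedback inhibitor that STAT3 induces, had 39.8 in Aire-deficient and 74.7 in wild-type cells (-0.91 ± 0.35, adjusted p = 0.254). Osmr, a receptor chain for oncostatin M, had 11.7 in Aire-deficient and 21.5 in wild-type cells (-0.88 ± 0.34, adjusted p = 0.248). Extl3, reported as a binding partner of Reg proteins at the cell surface, had 10.5 in Aire-deficient and 12.1 in wild-type cells (-0.20 ± 0.41, adjusted p = 0.863).

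Some other genes listed for the tissues that make Reg proteins were also lower. Of 10 tested genes of gut antimicrobial and Paneth cell proteins 3 fell and 0 rose, and the median difference was -0.75 over the 14 on the array. Paneth cell genes were hardly measured: Lyz1 and Ang4 were not among the 14, and Defa24, the only alpha-defensin there, was not tested. Mmp7 (-0.53 ± 0.45, adjusted p = 0.627 by limma) and Itln1 (0.08 ± 0.30, adjusted p = 0.932) were not called. Zg16, a lectin-like protein of secretory granules, fell to 6.66 in Aire-deficient cells, against 29.2 in wild-type cells (-2.13 ± 0.41, adjusted p = 0.035). Saa3, an acute-phase protein, fell to 375 in Aire-deficient cells, against 952 in wild-type cells (-1.34 ± 0.26, adjusted p = 0.035). Camp, the cathelicidin precursor of neutrophils and epithelia, fell to 21.4 in Aire-deficient cells, against 95.5 in wild-type cells (-2.16 ± 0.39, adjusted p = 0.0286). Saa3 was no longer called with the deposited values (adjusted p = 0.103), after median scaling, without the filter on dim signals, without the variance trend and without any 1 array (adjusted p = 0.0597 to 0.119). Those of Zg16 and Camp were each lost without the filter and in 5 of 6 fits with 1 array left out, Zg16 also without the variance trend and with the 3′ bias term, and 0 or 1 gene of the list was called in each of these 6 fits.

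Of 15 tested exocrine pancreas genes other than the Reg genes, 2 fell and 0 rose, and the median was -0.53 over the 19 on the array. Dmbt1, a secreted scavenger receptor that binds bacteria, fell to 5.61 in Aire-deficient cells, against 25.1 in wild-type cells (-2.16 ± 0.34, adjusted p = 0.0149). Ctrb1 was the other member that fell (-1.75 ± 0.33, adjusted p = 0.035). Prss2 had -2.42 ± 0.57 but was not called (adjusted p = 0.0661). The pancreatic colipase gene Clps and the chymotrypsin-like gene Ctrl lay close to 0, at -0.18 each (adjusted p = 0.91 and 0.834). Of 17 tested intestinal genes 5 fell and 0 rose. Their median was -0.76 over the genes tested, which a gene bright in wild-type cells alone could enter, and -0.30 over the 26 on the array. The 3 with the smallest p were under the dim limit on all Aire-deficient arrays, so their folds are bounds. Cck, also among the 5, was at the floor of 1.8 on those arrays. All of these entered the test through wild-type arrays alone. The goblet cell peptide Tff3 was at least 13.6-fold lower in Aire-deficient cells (adjusted p = 0.000477), the fatty acid binding protein Fabp2 at least 7.06-fold (adjusted p = 0.00177) and the gut hormone Gip at least 6.34-fold (adjusted p = 0.00722). With the filter at all 6 arrays, or with a wild-type array left out, these 3 and Cck were too dim to be tested. Under that stricter filter 1 of 10 tested intestinal genes fell, Fabp1. With the 6-array gene set kept Gip was not called without wild-type pool 3 (adjusted p = 0.0634). Gip was also not called by limma without the filter on dim signals (adjusted p = 0.0908), whereas Tff3 and Fabp2 were (adjusted p = 0.0357 each). Of 9 tested islet genes 1 fell and 0 rose (median -0.56 over the 17 on the array), the secretory granule protein Chgb (-2.23 ± 0.41, adjusted p = 0.0316). Its call was lost with the mean of its probe sets (-1.24, adjusted p = 0.154), without the filter and in 5 of 6 fits with 1 array left out. The call of Dmbt1 was lost without Aire-deficient pool 2 and without wild-type pool 2 or 3. Ctrb1 lost its call without any 1 array and without the variance trend (adjusted p = 0.0513 by limma). Both calls were lost without the filter. At an unadjusted p under 0.05 by limma, 3 tested gut antimicrobial, 7 exocrine pancreas, 8 intestinal and 4 islet genes were lower. That held for 8.32% of all genes tested. In none of these 4 lists was a gene higher at that threshold, and the median over all genes on the array was 0.01. With the replicate block, where 220 genes in all were called lower against 79 without it, the counts of falling genes were 3 for gut antimicrobial proteins, 5 for exocrine pancreas, 7 for intestine and 3 for islet.

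Genes whose signal followed that of Reg3g most closely over the 6 arrays were Ptgr1, Vnn1, Lor, Iapp, Adk and Mmp13. Their Pearson correlations of log2 signal with the brighter Reg3g probe set lay between 0.979 and 0.993. The 6 points hold both genotypes, so a gene that differs between them correlates for that reason too, and the genes were picked as the closest of all genes tested. Ptgr1, a prostaglandin reductase, gave 18.5, 6.43 and 2.88 in Aire-deficient pools 1 to 3, against 82.7, 18.9 and 32.4 in wild-type pools 1 to 3. Vnn1, a pantetheinase, gave 21.1, 8.23 and 5.33 in Aire-deficient pools 1 to 3, against 74.6, 30.8 and 36.0 in wild-type pools 1 to 3. Like the brighter Reg3g probe set, both were highest in pool 1 of each genotype, an order that the choice by correlation favours. Neither passed in the limma fit (adjusted p = 0.114 and 0.0679), although both passed with the replicate block (adjusted p = 0.0056 and 0.00369).

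Other features of the arrays moved with genotype too. Of 13 tested markers of granulocytes and other myeloid cells 6 fell (0 to 4 with 1 array left out), and the summed signal of the 18 markers on the array was 295 to 333 in Aire-deficient pools and 655 to 1242 in wild-type pools, with Elane and Itgam under the dim limit on all 6 arrays. Camp is one of these markers. Of the 6 that fell, Ly6g, Ngp and Ltf were under the dim limit on all Aire-deficient arrays and entered the test through wild-type arrays alone. With the filter at all 6 arrays, 3 of 7 tested markers fell. The median difference was -1.13 over the 18 on the array, and 10 of the 13 tested lay below 0. Csf3r (0.72) and Prtn3 (0.83, not tested) lay above 0, and Lyz2 was at -0.02. Of 14 tested medullary epithelial markers 0 were called, with 1 lower at an unadjusted p under 0.05 and 4 higher. The 1 was Epcam, the antigen of G8.8, with 89.2 in Aire-deficient and 197 in wild-type cells (adjusted p = 0.11), and Krt5 and Krt14 were under the dim limit on all arrays. Epcam ran against its list, whose median difference was 0.54 over the 16 on the array, with 3 of the 14 tested below 0. The summed signal of these 16 markers, Aire included, was 6169 to 7073 in Aire-deficient pools and 4250 to 5317 in wild-type pools. Markers of T cells, B cells, and fibroblasts and endothelium had 0 calls among 10, 4 and 8 tested genes, with 0, 0 and 1 lower at an unadjusted p under 0.05 and 1, 1 and 0 higher. With the replicate block Epcam was called lower and Aire, H2-Ab1, Krt18 and the B cell marker Blk were called higher, and Aire was also called higher on the values as deposited and after median scaling. The 3′ over 5′ signal ratio of beta-actin, a sign of RNA quality and amplification, was 4.38, 5.75 and 13.4 in Aire-deficient pools 1 to 3 and 5.42, 95.8 and 13.8 in wild-type pools 1 to 3. With that ratio as a term in the fit, the differences were -2.89 for Reg3b, -1.78 for Reg3g and -1.71 for Reg1, and without wild-type pool 2 they were -2.86, -1.57 and -1.63. The part of the myeloid signal in the Reg differences was not tested.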

How the data were processed

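The authors deposited 1 table of linear signal intensity per probe set, with 1 decimal, for 6 arrays. How they were background-corrected and scaled, and with which software, is not stated in the sources used here. After 66 control probe sets were left out, 10833 of 12422 named 1 gene, 396 several and 1193 none in the platform annotation, and 10817 of the former matched a gene of GRCm38.p6 by Entrez identifier. Gene order came from the RefSeq table of that assembly.

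Trimmed means (2% at each end) of the 6 deposited columns lay between 19.4 and 26.7. Their spread passed the limit of 5% set for use without scaling, so quantile normalization was applied. A floor was set at the pooled 20th percentile. The probe set with the highest mean log2 signal stood for each of 8251 genes, and the 5950 genes that exceeded the pooled 40th percentile on 3 or more arrays were tested with limma 3.58.1 in R 4.3.3 (variance trend, 2-sided, Benjamini-Hochberg over all genes tested, threshold 0.05). SEs of Reg probe sets come from the pooled variance of 3 pools a group, and those of other genes from limma. On simulated data for this comparison (200 of 5950 genes changed), 20% of 50 genes changed 2-fold, 60% at 4-fold, 82% at 8-fold and 90% at 16-fold were recovered, with 4 false calls among 130. The simulated noise was independent between arrays and was added after the floor and the filter. These rates may therefore not hold for dim genes or for arrays that deviate together.

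Arrays with equal replicate numbers deviated together from their group means (r = 0.38, 0.21 and 0.19, against -0.26 to 0.08 for unequal numbers). Pairing was therefore assumed for the block, from these values and not from the labels. The pools are separate samples of animals, and p-values measure the spread between pools, amplification included.

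Members and gene lists were chosen with earlier results of these data known. Named genes are the members, Aire, Stat3 and Extl3, in each list up to 3 called genes or else 2 genes with the smallest p, 3 neighbours a side, and the 6 genes most correlated with the brightest Reg probe set. Clps, Ctrl, Prss2, Mmp7, Itln1, Cck, Fabp1 and the single cell type markers other than Aire and Camp were named after their values were seen. The alternatives changed the scaling, floor, filter, variance model or probe set rule, or added the block or a term for 3′ bias, or left arrays out. Leaving out arrays with the gene set of 6 arrays kept was added after the data were seen. Promoters were aligned with Biopython 1.88 (match 1, mismatch -1, gap opening -2, gap extension -0.5). Python 3.11.15 with matplotlib 3.10.9 drew the figures.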

Additional observations from a re-analysis of the deposited data

How the results depend on the processing

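Reg3b was the Reg gene called lower in the main fit, and the count of Reg genes called lower was also 1 on the values as deposited, after median scaling, with both other floors, with the stricter filter, without the variance trend and with both other probe set rules. It was 0 without a filter and without both arrays numbered 2, 2 with the replicate block and with the 3′ bias term, and 3 with array weights (Reg1, Reg3b and Reg3g). With 1 array left out it was 0 to 1, and no setting called a Reg gene higher. All genes called lower numbered 79 in the main fit, 12 without a filter, 31 with genes above the dim limit on all 6 arrays, 139 with array weights and 220 with the replicate block. All genes called higher numbered 23 in the main fit, 63 on the values as deposited, 57 after median scaling, 46 with the higher floor, 4 without a filter, 11 without the variance trend, 67 with array weights and 154 with the replicate block. Without both arrays numbered 2 no gene was called by limma in either direction, although 270 were lower at an unadjusted p under 0.05 and 226 higher. With 1 array left out 0 to 51 genes were lower and 0 to 8 higher, the zeros without wild-type array 3 (381 lower at an unadjusted p under 0.05 and 451 higher). With the 6-array gene set kept, the lower and higher counts were 53 and 8, 20 and 1, and 35 and 7 without Aire-deficient arrays 1, 2 and 3, and 38 and 11, 22 and 7, and 6 and 2 without wild-type arrays 1, 2 and 3. The median difference of the Reg genes was -1.70 to -1.19 with 1 array left out. The cause of these shifts was not tested.

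The difference of Reg3b stayed between -3.07 and -2.35 with 1 array left out, that of Reg3g between -1.75 and -0.97, that of Reg1 between -1.70 and -1.18, that of Reg2 between -1.19 and 0.16 and that of Reg3a between -2.08 and -1.13, with -2.08 without Aire-deficient array 2 and -2.04 without both arrays numbered 2. With the mean of its probe sets Reg1 had -0.57, and with the higher floor Reg3a had -0.48. Extl3 turned to 0.080 with the 3′ bias term, and it ranged from -0.53 to 0.13 with 1 array left out, turning without Aire-deficient array 1. Pole4 ranged from -0.45 to 0.82, turning without Aire-deficient array 3. On deposited values, and after median scaling, the median of all genes shifted to 0.10. Dim signals limit what Reg2, Reg3a and the second Reg1 probe set can show.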

Other observations

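Other lectins of these cells did not follow 1 direction. Of 13 tested proteins with a C-type lectin-like fold outside the Reg family, 0 were called by limma, with 2 lower at an unadjusted p under 0.05 and 2 higher, and their median difference was 0.51, against -0.04 over all 28 such genes on the array, 9 of which were under the dim limit on all 6 arrays. Prg2, the major basic protein of eosinophil granules, gave 67.0, 42.2 and 38.9 in Aire-deficient pools 1 to 3, against 18.4, 12.0 and 24.8 in wild-type pools 1 to 3 (1.44 ± 0.37, adjusted p = 0.0827, or 0.0235 with the replicate block and 0.0408 on the values as deposited). The groups did not overlap. Ly75, an endocytic receptor of dendritic cells and thymic epithelium, averaged 66.8 in Aire-deficient and 37.9 in wild-type cells (0.82 ± 0.31, adjusted p = 0.245).

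Galectins, which bind galactosides through another fold, were listed together with Lgals3bp, which is not a galectin. The list had 0 calls among 7 tested genes in the limma fit. At an unadjusted p under 0.05, 3 were lower, Lgals3bp included, and 0 higher. The median difference was -0.65 over the 8 on the array. Lgals2, a galectin of the gastrointestinal epithelium, gave 10.3, 18.9 and 7.93 in Aire-deficient pools 1 to 3, against 36.3, 27.0 and 39.9 in wild-type pools 1 to 3 (-1.55 ± 0.38, adjusted p = 0.0739, or 0.0297 with the replicate block). All Aire-deficient pools were below all wild-type pools. Lgals3bp, a secreted glycoprotein bound by galectin-3, averaged 15.3 in Aire-deficient and 33.6 in wild-type cells (-1.14 ± 0.36, adjusted p = 0.161).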
